A study of Mus musculus with 6 samples.

Results

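Repressive chromatin in Dicer KO mouse embryonic stem cells (ESCs) was described here by comparing 3 histone modifications with each other: H3K9me2, H3K27me3 and H3K9me3. The members were chosen by their labels, as the 3 ChIP-seq libraries of the genotype Dicer -/-, 1 per mark, out of 6 libraries in the series. The antibodies were from Abcam for H3K9me2 and from Active Motif for H3K27me3 and H3K9me3. The remaining 3 libraries hold the same marks in Dicer KO/Dnmt1 cKO cells (labelled Dicer/Dnmt1 -/-) and served only as data that the choice of regions had not used. The Dicer deletion was constitutive and was made in a line that carries floxed Dnmt1, from a single-cell colony screen, so all 6 libraries lack Dicer and the cells compared here still had Dnmt1. Dnmt1 is deleted in that line by a Cre that tamoxifen induces. The labels name E14 as background strain, whereas the study's methods describe a C57BL/6 line, and the difference was not settled here.

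These marks belong to separate silencing systems. H3K27me3 is placed by the Polycomb complex PRC2, above all at CpG-rich promoters of developmental genes that are held silent in ESCs. H3K9me2 is placed mainly by the enzyme pair G9a and GLP over broad, gene-poor or inactive chromatin, and H3K9me3 by SETDB1 and the SUV39H enzymes at retroviral repeats, imprinted control regions, zinc-finger gene clusters and satellite DNA.

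The deposited values are log2 ratios of observed to expected reads in 2 kb tiles, from which whole reads were recovered. Of 1236182 autosomal tiles, 976425 (79.0%) were used, which are those of full length and without N in which at least 75% of the sampled 32-base words were unique in the genome. These tiles held 23427713 reads in the H3K27me3 library, 14328877 in H3K9me2 and 14236679 in H3K9me3, which are means of 24.0, 14.7 and 14.6 reads per tile. The level of a mark is given throughout as its reads over the mean of its used tiles, so that 1 is the average of that library. Levels compare where each mark lies and say nothing of the absolute amount of one mark against another. There was 1 library per mark, so no difference between marks has a replicate check and no test was made. No input library was used here.

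Each library was most like the library of its own mark in the other genotype. Over 22528 windows of 100 kb with at least 25 used tiles, the rank correlation with the Dicer KO/Dnmt1 cKO library of the same mark was highest for H3K27me3, at 0.982, and stood at 0.932 for H3K9me2 and 0.925 for H3K9me3. The highest correlation of a Dicer KO library with a library of another mark was 0.773. Of the ESC markers, Pou5f1 had levels of 0.611 for H3K27me3, 0.386 for H3K9me2 and 0.480 for H3K9me3, and Klf4 had 0.563, 0.375 and 0.343. Sox2 had 0.271 for H3K27me3 and 0.137 for H3K9me3, and no H3K9me2 read in its 2 tiles, where a count of 0 allows a level of up to 0.102. Esrrb was above average in H3K27me3 at 1.15, with 0.693 for H3K9me2 and 0.877 for H3K9me3. Nanog was above average in H3K9me3 at 1.17, with 0.409 for H3K9me2 and 0.325 for H3K27me3, and its H3K9me3 was at 0.795 in the Dicer KO/Dnmt1 cKO library. Tfcp2l1 was not found under that symbol in the annotation. The fibroblast genes varied in H3K27me3: Thy1, Col1a1 and Twist2 were at 3.92, 2.84 and 2.12. These were the 3 of 15 listed fibroblast markers at 2 or more, against 9.86% of all measured protein-coding genes. Col1a2 was at 1.38, Col3a1 at 0.600 and Fn1, for fibronectin, lowest at 0.254. Histone marks do not measure expression, and these levels describe the chromatin of the marker genes alone. The deleted gene Dicer1 had levels of 0.645 for H3K9me2, 0.585 for H3K9me3 and 0.340 for H3K27me3 over 34 tiles. Dnmt1, intact in these cells by the labels, had 0.309, 0.497 and 0.224 over 24 tiles. Levels over whole genes do not check the Dicer deletion.

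Promoters are shown for 1 gene of each mark among those at which it led the other marks most. The ranking of genes did not use CpG density. Each line gives 300 bases of NCBIM37, from 250 before the annotated start to 50 after it, read on the minus strand, with every CG in capitals. They belong to Csn2, the gene for the milk protein beta-casein (chr5:88128397-88128696, leading in H3K9me2), Skor1, a transcriptional corepressor of the SKI family (chr9:62996719-62997018, leading in H3K27me3), and Polrmt, the mitochondrial RNA polymerase (chr10:79209277-79209576, leading in H3K9me3). Among the 11619 genes with at least 5 used tiles and 200 reads, Skor1 and Polrmt ranked at the top of their marks, and Csn2 stood next to the top, after 4930503L19Rik. Smaller genes, some with larger ratios, were not ranked.
Csn2: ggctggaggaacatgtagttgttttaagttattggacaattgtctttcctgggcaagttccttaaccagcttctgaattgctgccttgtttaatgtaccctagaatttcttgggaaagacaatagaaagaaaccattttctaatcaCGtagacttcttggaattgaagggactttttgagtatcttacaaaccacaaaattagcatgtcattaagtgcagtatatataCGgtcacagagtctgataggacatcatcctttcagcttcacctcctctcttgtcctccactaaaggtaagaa
Skor1: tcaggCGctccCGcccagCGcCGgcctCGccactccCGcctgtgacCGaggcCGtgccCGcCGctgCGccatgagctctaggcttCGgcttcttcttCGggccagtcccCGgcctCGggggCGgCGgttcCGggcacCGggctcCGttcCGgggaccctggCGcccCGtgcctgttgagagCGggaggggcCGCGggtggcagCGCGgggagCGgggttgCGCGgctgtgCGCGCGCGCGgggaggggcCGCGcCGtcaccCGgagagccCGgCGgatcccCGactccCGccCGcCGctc
Polrmt: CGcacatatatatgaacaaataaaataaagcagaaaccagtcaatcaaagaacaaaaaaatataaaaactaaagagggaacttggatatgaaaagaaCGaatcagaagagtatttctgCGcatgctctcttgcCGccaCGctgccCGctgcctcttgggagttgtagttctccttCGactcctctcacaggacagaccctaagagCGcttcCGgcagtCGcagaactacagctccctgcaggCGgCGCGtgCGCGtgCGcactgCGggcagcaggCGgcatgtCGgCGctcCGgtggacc
The Csn2 promoter holds 2 CG, Skor1 46 and Polrmt 21. Of all autosomal protein-coding promoters of this length, 88.0% hold at least 2 CG, 2.02% at least 46 and 30.8% at least 21. The median over all of them was 12. The promoters shown are not typical in every case: 4930503L19Rik, the top gene of H3K9me2, whose promoter is not printed, holds 25. The top gene of each mark would give 25 for H3K9me2, 46 for H3K27me3 and 21 for H3K9me3. The low count printed for H3K9me2 thus depends on showing Csn2. Over the 8 genes named for each mark the median was 3 for H3K9me2 (2 to 25), 29 for H3K27me3 (11 to 46) and 21 for H3K9me3 (2 to 39). The 8 genes do not stand for all genes led by H3K27me3: over the 4721 genes where it was at least 25% above both other marks the median was 9, below the 13 of all measured genes.

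The 3 marks differed in how unevenly they were spread. H3K27me3 had the widest range: its 90th percentile over tiles was 7.17 times its 10th, against 3.83 times for H3K9me2 and 3.14 times for H3K9me3. The richest 1% of tiles took 4.64% of H3K27me3 reads, 3.39% of H3K9me3 reads and 2.45% of H3K9me2 reads. In H3K9me3 0.907% of reads lay in the richest 0.1% of tiles, close to the 0.912% of H3K27me3 and above the 0.428% of H3K9me2. A single tile carries much of this H3K9me3 share, at a level of 2588, while the highest H3K27me3 tile was at 241. Without that tile the H3K9me3 share would be lower and less close to that of H3K27me3. H3K27me3 was also the deepest library, to whose range counting error adds least. Neighbouring tiles resembled each other most in H3K27me3, with a rank correlation of 0.769 at 2 kb, against 0.498 in H3K9me2 and 0.439 in H3K9me3. At 100 kb the values were 0.286, 0.254 and 0.194. At 500 kb H3K27me3 had dropped to 0.0724, below H3K9me2 at 0.124 and H3K9me3 at 0.0880, so that H3K9me2 kept the longest reach. Each of these correlations is over tiles of 1 library, and the libraries differ in depth.

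**Figure D1:**
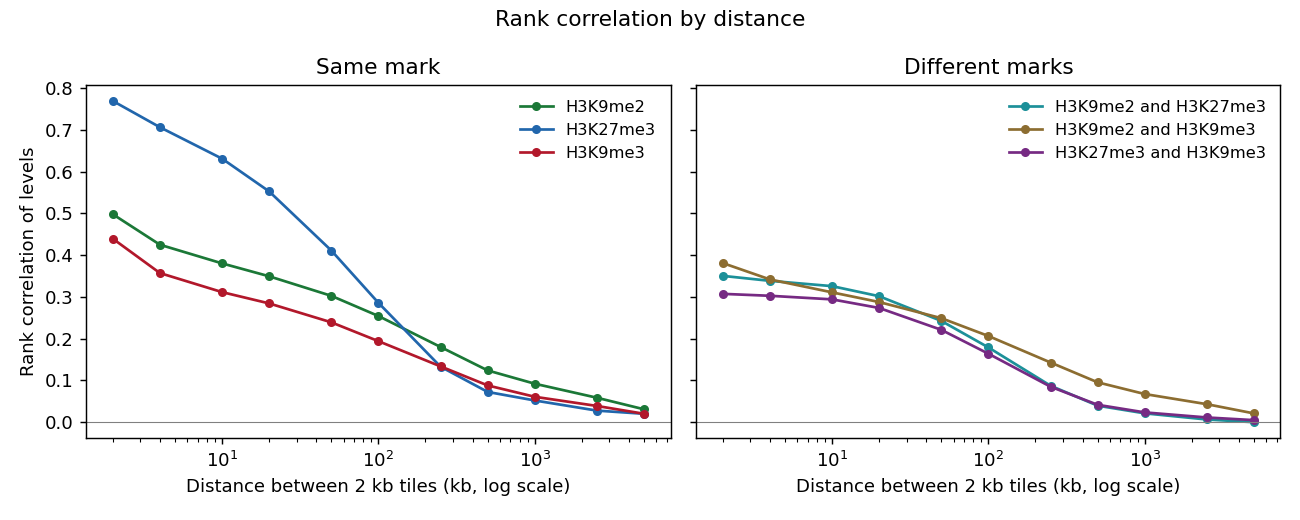
Rank correlation of levels between 2 kb tiles of the Dicer KO libraries, by distance in kb on a log axis, within a mark (left) and between marks (right, mean of both directions). H3K27me3 starts highest at 0.769 and falls below H3K9me2 by 250 kb, where the values are 0.133 and 0.180.

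Across the genome the 3 marks rose and fell together more than they replaced each other. Over 100 kb windows the rank correlation was 0.773 between H3K9me2 and H3K9me3, 0.577 between H3K9me2 and H3K27me3 and 0.512 between H3K27me3 and H3K9me3. Over 2 kb tiles it was 0.465, 0.404 and 0.336. With all autosomal tiles that held any read the leading pair over tiles turned. There H3K9me2 with H3K27me3 was at 0.490 and H3K9me2 with H3K9me3 at 0.484. All points share the tile's mappability and base composition. With levels corrected for GC content, the window values of H3K9me2 with H3K9me3 and with H3K27me3 were nearly equal, at 0.738 and 0.733. In tiles of at least 95% unique words the order of the lower pairs turned, with 0.571 between H3K27me3 and H3K9me3 and 0.519 between H3K9me2 and H3K27me3. The first principal component of the log2 window levels, with weights of 0.840 for H3K27me3, 0.438 for H3K9me2 and 0.321 for H3K9me3, held 79.7% of the variance and was weighted most by H3K27me3, the mark with the widest range. The component next in size held 17.2% and set H3K27me3 (weight 0.543) against H3K9me2 (-0.677) and H3K9me3 (-0.497).

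**Figure D2:**
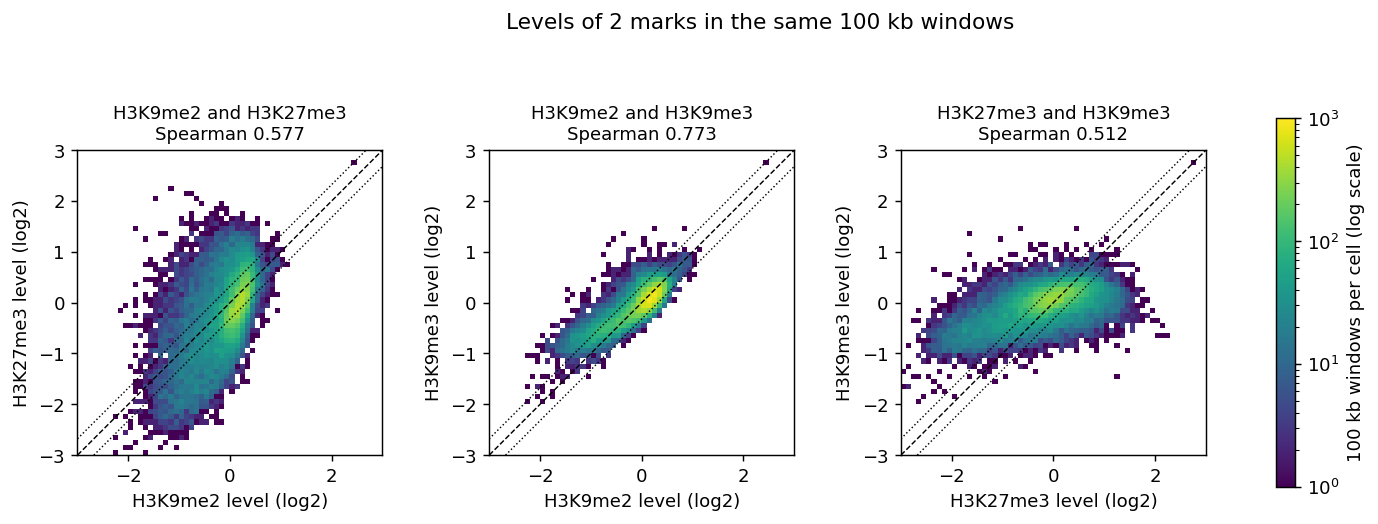
Number of 100 kb windows (colour, log scale) by the log2 levels of each pair of marks in Dicer KO ESCs, with equal levels dashed and a lead of 25% dotted. H3K9me2 and H3K9me3 follow each other most closely (Spearman 0.773), and up to 6 of 22528 windows per panel lie outside the axes.

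Tiles low in 1 mark were low in the others, and the marks parted in tiles high in H3K27me3 or in H3K9me3. In tiles with an H3K27me3 level below 0.25, the median levels of H3K9me2 and H3K9me3 were 0.477 and 0.617. Both rose with H3K27me3, to 1.23 and 1.1 where H3K27me3 was between 1.5 and 2. Beyond this they fell, and in the 2481 tiles with H3K27me3 of 5 or more they were at 0.409 and 0.686. Strong Polycomb tiles thus had less H3K9me2 than tiles nearly without H3K27me3. Tiles ordered by H3K9me3 showed the same bend: the median of H3K9me2 rose from 0.341 to 1.23 and then dropped to 0.681 in the 2803 tiles with H3K9me3 between 3 and 5, while H3K27me3 peaked at 1.17 and dropped to 0.709. In the 332 tiles with H3K9me3 of 5 or more, H3K27me3 was at 1.02 and H3K9me2 at 0.716. Ordered by H3K9me2, no such bend was seen up to a level of 3. In the 14389 tiles with H3K9me2 between 2 and 3, H3K27me3 reached 1.38 and H3K9me3 1.30. Base composition was not held constant in these orderings. Over all used tiles in the highest CpG decile, the median was 0.545 for H3K9me2 and 0.754 for H3K9me3. Whether the bends remain at like composition was not tested.

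**Figure D3:**
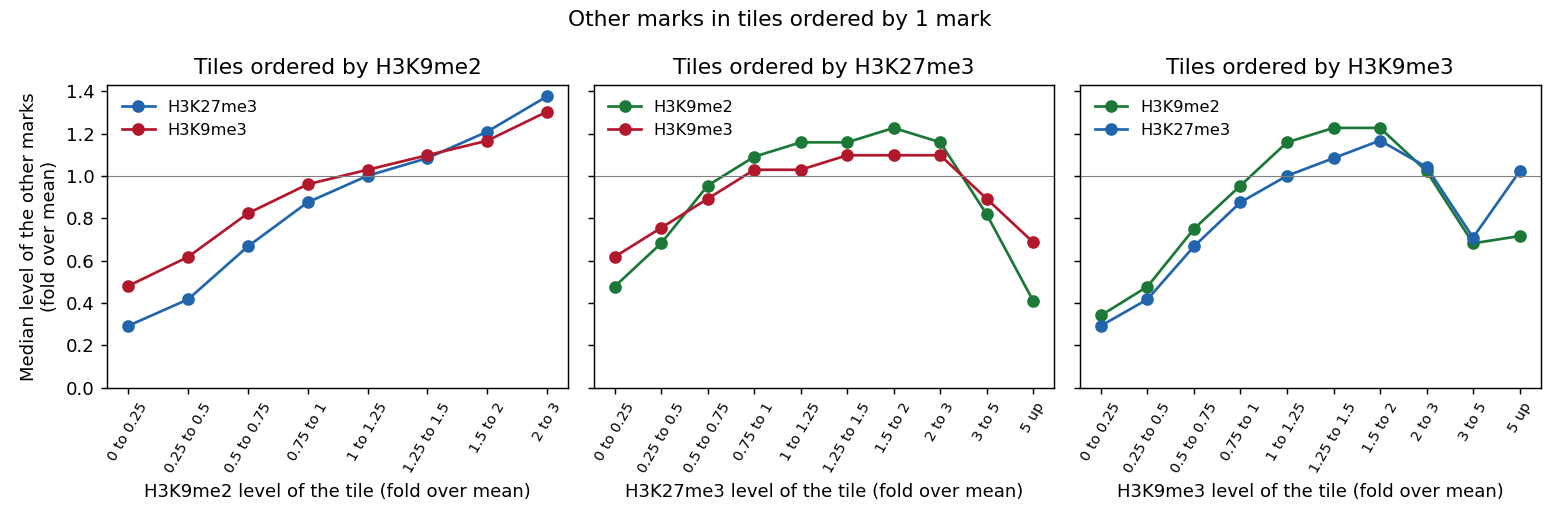
Median levels of the other marks (fold over the library mean) in 2 kb tiles grouped by the level of 1 mark in Dicer KO ESCs, for groups of at least 200 tiles. H3K9me2 climbs to 1.23 and then drops to 0.409 in tiles with H3K27me3 of 5 or more, while no drop appears in tiles ordered by H3K9me2.

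A mark was said to dominate a 100 kb window where its level was at least 25% above that of both others. H3K27me3 dominated 3322 windows (14.7%, Wilson 95% interval 14.3 to 15.2), H3K9me3 1610 (7.15%, 6.82 to 7.49) and H3K9me2 422 (1.87%, 1.70 to 2.06), which left 17174 (76.2%) with no dominating mark. These intervals cover counting of windows only, and adjacent windows are not independent. In the Dicer KO/Dnmt1 cKO libraries the same call was made for 2713 (81.7%) of the H3K27me3 windows, 725 (45.0%) of the H3K9me3 windows and 128 (30.3%) of the H3K9me2 windows. There the marks dominated 13.0%, 3.96% and 2.16% of all windows. No window changed from one dominating mark to another between the genotypes. The shares depended on the definition, most of all that of H3K9me2, which came to 1 window at a ratio of 1.5 and 3941 at 1.1. At a ratio of 1.1 it stood above H3K9me3, with 17.5% against 16.5% of windows. With GC-corrected levels the shares were 9.87% for H3K27me3, 7.38% for H3K9me3 and 0.985% for H3K9me2. The share of H3K9me3 dropped to 1.85% at a ratio of 1.5, to 2.30% in windows of 500 kb, to 4.38% in tiles of at least 95% unique words and to 3.04% where its own level had to be at least 1, a setting chosen after seeing the data. H3K27me3 had the largest share under all these settings, from 7.82% at a ratio of 1.5 to 22.5% at 1.1. H3K9me2 often had the highest level without leading by much: it was highest in 8769 windows (38.9%), with a median ratio to the next mark of 1.09, and its largest ratio in any window was 1.52. The largest ratio of H3K27me3 was 7.70. That of H3K9me3 was 5.46, in a window where 98.5% of its reads lay in 1 tile, and the next was 3.63.

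The dominated windows differed in gene starts and in GC content, which the calls had not used directly. H3K27me3 windows were GC-rich and gene-rich, with a median GC content of 47.0% and a mean of 1.60 protein-coding gene starts, against 41.5% and 0.871 over all windows. H3K9me2 windows were lowest in both, at 38.6% GC and 0.329 gene starts. Of these, 78.7% held no gene start, against 57.5% of all windows, while a median of 78.0% of their tiles overlapped a protein-coding gene, against 37.8% over all windows. GC content is not independent of the levels. From the lowest to the highest GC decile of all used tiles, median H3K27me3 climbed from 0.667 to 1.21. Median H3K9me2 was 0.954 in the lowest decile but 0.613 in the highest, with H3K9me3 going from 0.892 to 0.754. GC correction of the levels lowered the H3K27me3 share of windows from 14.7% to 9.87%. Whether windows dominated after this correction differ in GC content or gene starts was not tested.

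H3K9me3 windows differed by the level of H3K9me3 itself. In 685 of them the level of H3K9me3 was at least 1, with medians of 1.31 for H3K9me3, 0.933 for H3K9me2 and 0.710 for H3K27me3. These held a mean of 0.682 gene starts, a median GC content of 40.2% and a median of 78.5% unique words, against 89.1% over all windows. In the other 925 H3K9me3 was itself below average, at a median of 0.693, and led while H3K9me2 (0.484) and H3K27me3 (0.345) were lower still. These were gene-dense, with a mean of 2.42 gene starts. The lowest levels of the H3K9me3 library were the highest of the 3, with a 10th percentile over tiles of 0.480 against 0.409 for H3K9me2 and 0.250 for H3K27me3. Where H3K9me3 led at a level below 1, all 3 marks were thus below their library means, and H3K9me3 the least. Without an input library, such a lead shows neither enrichment nor depletion of a mark on an absolute scale. The split at a level of 1 was chosen after the values had been seen, and whether the windows form separate groups was not tested. The other marks also led below a level of 1, H3K27me3 in 223 windows with a mean of 3.37 gene starts and H3K9me2 in 63.

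H3K27me3 had the longest runs of windows that it dominated. Its 3322 windows fell into 1728 runs of adjacent windows, 112 of them of at least 500 kb, and 30.3% of the windows stood alone. H3K9me3 had 6 runs of that length and H3K9me2 0, with 55.3% and 79.6% of windows alone. H3K27me3 also dominated the most windows, 14.7% against 7.15% for H3K9me3 and 1.87% for H3K9me2. A larger share by itself gives longer runs, so these runs do not measure the reach of each mark. The longest H3K27me3 run covered 1400 kb (chr2:177800001-179200000) with mean levels of 1.95 for H3K27me3, 1.20 for H3K9me2 and 1.22 for H3K9me3. It spans Phactr3, Sycp2, a component of the meiotic synaptonemal complex, and Cdh4, a cadherin of neurons. The longest H3K9me3 run covered 700 kb without a protein-coding gene (chr9:11400001-12100000), at 1.28 for H3K9me3, 0.903 for H3K9me2 and 0.443 for H3K27me3. For H3K9me2 the longest run was 400 kb at Tll1, a tolloid-like metalloprotease gene (chr8:66500001-66900000), with levels of 1.12, 0.673 for H3K27me3 and 0.871 for H3K9me3.

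The 3 windows with the largest lead of H3K27me3 were all Hox clusters, which encode the homeodomain factors of the body axis. Hoxd (chr2:74500001-74600000) had levels of 4.84 for H3K27me3, 0.461 for H3K9me2 and 0.628 for H3K9me3, a ratio of 7.70 to the next mark (95% counting interval 7.01 to 8.47). Hoxb (chr11:96100001-96200000) had 4.17, 0.373 and 0.619, and Hoxc (chr15:102800001-102900000) 4.30, 0.590 and 0.658. In these windows 45 of 50, 34 of 49 and 44 of 50 used tiles had H3K27me3 levels of 2 or more. The ratios in the Dicer KO/Dnmt1 cKO libraries were 5.76, 5.16 and 5.16.

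The leading H3K9me3 windows were of another make. At chr9:35100001-35200000 the levels were 59.7 for H3K9me3, 10.9 for H3K9me2 and 5.20 for H3K27me3, but 98.5% of the H3K9me3 reads fell in a single tile, so this window describes 1 tile. At chr13:120200001-120300000, which holds Paip1, a translation factor that binds poly(A)-binding protein, H3K9me3 was at 2.46, H3K9me2 at 0.676 and H3K27me3 at 0.496, with 22.2% of H3K9me3 reads in 1 tile. Of its 41 used tiles 4 were at 2 or more, and 3 of the window's tiles (chr13:120278001-120284000) were rich in all 3 marks, with a mean H3K9me3 of 17.8, so this window too rests on few tiles. At chr6:37700001-37800000 no protein-coding gene is annotated and the enrichment was broad, with 23 of 36 used tiles at 2 or more. Its levels were 2.59, 0.799 and 0.318. For H3K9me2 the leading windows lay in Kcnt2, a potassium channel gene (chr1:142200001-142300000), and in stretches without a protein-coding gene at chr6:67700001-67800000 and chr12:39600001-39700000. Their ratios to the next mark were 1.52 (1.35 to 1.71), 1.45 and 1.45, while the other genotype gave 1.24, 1.30 and 1.22.

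Some regions were high or low in all 3 marks. All 3 levels were at least 25% above the mean in 881 windows (3.91%), of which 81.6% held no gene start, against 57.5% of all windows. Chromosome 14 contributed 196 of these, or 17.9% of its 1095 windows. Its mean levels over all used tiles were 1.11 for H3K27me3, 1.15 for H3K9me2 and 1.14 for H3K9me3, and 1.11, 1.14 and 1.13 among the libraries of the other genotype. Chromosome 17 was low in all 3, with H3K27me3 at 0.895, H3K9me2 at 0.839 and H3K9me3 at 0.896. As no input library was used, the mark and the amount of DNA in the cells cannot be told apart in these levels. All 3 marks were at 0.5 or below in 91 windows (0.404%), which were gene-dense with a mean of 2.05 gene starts and a median of 88.6% of tiles in genes.

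At the scale of 2 kb tiles, a tile was called rich where the level was at least 2. By this, 1.5% of tiles were rich in H3K9me2, 7.01% in H3K27me3 and 2.17% in H3K9me3, or 14601, 68428 and 21207 tiles. Of these, 13.1%, 58.1% and 44.0% were rich again in the Dicer KO/Dnmt1 cKO library of the same mark. Over all used tiles, 0.934%, 6.13% and 2.15% were rich there. Tiles rich in Dicer KO were thus called more often than tiles in general for each mark. Most of the H3K9me2 tiles and most of the H3K9me3 tiles were not called again. The median level of the H3K9me2 tiles was 2.18 in the library that chose them and 1.45 in the other genotype. With GC-corrected levels the Dicer KO share rich in H3K27me3 was 4.37%. With all autosomal tiles that held any read, 2.48% were rich in H3K9me2. Runs of rich tiles of at least 20 kb numbered 590 for H3K27me3, 4 for H3K9me2 and 6 for H3K9me3. A gene start was present in 4.94% of H3K27me3-rich tiles, 0.863% of H3K9me2-rich tiles and 0.726% of H3K9me3-rich tiles, against 1.83% of all tiles. Intergenic tiles made up 72.1% of those rich in H3K9me3, 63.9% of those rich in H3K9me2 and 53.4% of those rich in H3K27me3, against 55.1% of all.

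Tiles rich in a pair of marks were few, but tiles rich in 1 mark were rich in another more often than tiles in general. H3K9me2 and H3K27me3 were both rich in 2644 tiles, which is 18.1% of the H3K9me2-rich tiles and 3.86% of the H3K27me3-rich tiles. H3K9me2 and H3K9me3 shared 1176 tiles (8.05% and 5.55% of the lists), and H3K27me3 and H3K9me3 shared 2102 (3.07% and 9.91%). H3K27me3 and H3K9me3 lay nearest to the shares over all tiles, which were 2.17% for H3K9me3 and 7.01% for H3K27me3. Tiles rich in both of these had medians of 2.33 for H3K27me3 and 2.26 for H3K9me3. All tiles rich in each mark had nearly the same, at 2.38 and 2.33, since a cut at 2 largely sets such medians. Of the tiles rich in both, 657 (31.3%) were rich in both marks again in the Dicer KO/Dnmt1 cKO libraries. Over all used tiles this share can be no more than 2.15% there, which is the share rich in H3K9me3.

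All 3 marks were rich in 481 tiles, which formed 311 clusters, and the 5 largest held 19.3% of them. The largest, 44 tiles at chr1:90108001-90208000, had mean levels of 6.06 for H3K9me2, 7.59 for H3K27me3 and 7.03 for H3K9me3. A cluster of 31 tiles at chr11:3032001-3100000 had 27.3, 30.6 and 35.3. The genes with the highest minimum of the 3 marks lay in these regions: Sfi1, a gene of the centrosome (chr11:3031853-3093466), at 27.1, 31.3 and 34.8, and Heatr7b1 (chr1:90123561-90158864) at 6.62, 9.09 and 7.56. The levels in the other genotype were close to these, with 26.5, 33.8 and 36.6 at Sfi1, and the cause was not tested.

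Over gene bodies, the level of at least 1 used tile could be given for 19735 of 21418 autosomal protein-coding genes. The median was highest for H3K9me3, at 0.747, with H3K9me2 at 0.671 and H3K27me3 at 0.650. H3K9me2 was at least 25% above both other marks at 858 genes (4.35%), H3K27me3 at 4721 (23.9%) and H3K9me3 at 4868 (24.7%). This is meant below where a mark is said to lead. Levels of 2 or more were reached at 0.324%, 9.86% and 0.583% of genes, so few of the genes led by H3K9me3 were rich in it. Promoters of genes led by H3K9me2 had a median of 3 CG, those led by H3K27me3 9 and those led by H3K9me3 19. The median lengths of these genes were 3.82, 11.6 and 13.9 kb, against 17.4 kb over all measured genes. Of the 858 genes led by H3K9me2, 223 were olfactory and 27 vomeronasal receptor genes. The CG counts were not compared at like length or without these families. The lead held in the Dicer KO/Dnmt1 cKO libraries at 83.5% of H3K27me3 genes, 47.8% of H3K9me3 genes and 32.2% of H3K9me2 genes. The shares of all measured genes led by each mark in those libraries are not given here. How far the repeated leads lie above them can therefore not be read.

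Around gene starts the mean levels of the H3K9 marks dipped and that of H3K27me3 rose, at the resolution of 2 kb tiles. For its Dnmt1 deletion series the study reports H3K27me3 enrichment at promoters but depletion at the start sites themselves. Tiles of 2 kb may not resolve this. In the tile of the start, the mean over all protein-coding genes was 0.529 for H3K9me2, 0.679 for H3K9me3 and 1.16 for H3K27me3, whereas 50 kb upstream it was 0.819, 0.875 and 0.943. The median of H3K27me3 over the 3 tiles at the start was lower than this mean, at 0.695. The dip was deeper the more CG the promoter held. Over the 3 tiles at the start, the median of H3K9me2 went from 1.07 with fewer than 2 CG through 0.954 (2 to 4), 0.704 (5 to 9) and 0.432 (10 to 19) to 0.341 with at least 20. Where the 300 bases held at least 20 CG, H3K9me2 was at 0.242 and H3K9me3 at 0.482 in the tile of the start, and where they held fewer than 5 CG the levels were 0.991 and 0.983. H3K27me3 was at 1.04 and 1.20. In the 7019 genes with at least 20 CG, H3K27me3 over the 3 tiles at the start had a median of 0.347 and an upper quartile of 1.13, and 17.8% of them reached a level of 2. In the 2107 genes with fewer than 2 CG the median was 0.917 and 5.41% reached 2. The classes between reached 2 at 13.2% (2 to 4 CG), 19.2% (5 to 9) and 18.8% (10 to 19), and the median was highest, at 1.08, with 5 to 9 CG. Starts rich in H3K27me3 were thus not a feature of the most CpG-rich class alone.

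**Figure D4:**
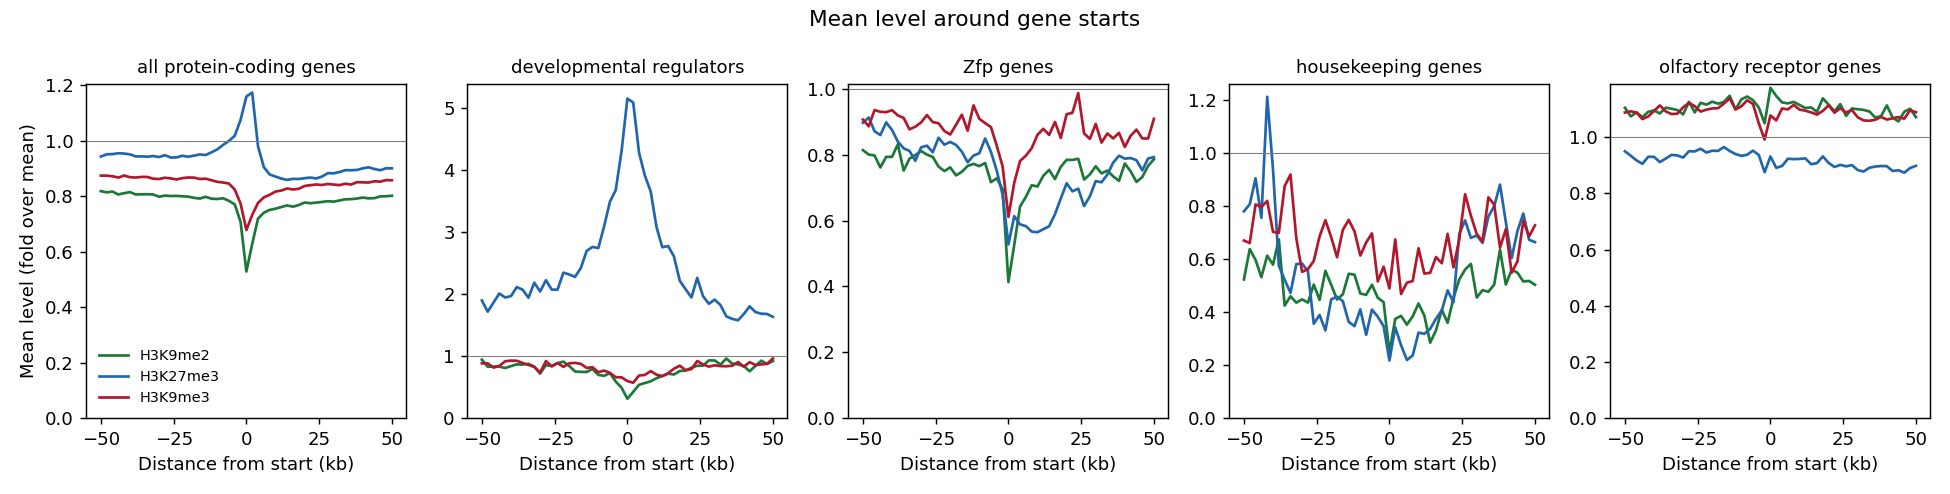
Mean levels (fold over the library mean) of the 3 marks in 2 kb tiles by distance from the gene start in kb, for all protein-coding genes and 4 gene lists in Dicer KO ESCs, without the 42 tiles above a level of 20 in any mark, a limit set after the profiles had been seen. Vertical axes differ, and H3K27me3 reaches 5.16 at the start of developmental regulators, where H3K9me2 is at 0.315.

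Developmental regulators were the clearest Polycomb list. Of 48 listed genes 47 were measured, with medians of 3.68 for H3K27me3, 0.398 for H3K9me2 and 0.636 for H3K9me3. H3K27me3 led at 46 of them, in both genotypes, and was at 2 or more at 40, against 23.9% and 9.86% of all measured genes. The highest were Neurog1, a proneural factor (chr13:56351866-56353524), at 8.98 (0.375 for H3K9me2 and 0.617 for H3K9me3) and Wnt1, a secreted signal of the midbrain, at 8.18 (0.409 and 0.686). Tbx15, at 1.21 for H3K27me3, 1.09 for H3K9me2 and 0.946 for H3K9me3, was the gene of the list highest in H3K9me2. The clustered protocadherins, adhesion proteins of neurons, were alike: H3K27me3 led at 24 of 24 (23.9% of all measured genes), and at 23 in both genotypes, with a median of 2.37 against 0.670 for H3K9me2 and 0.794 for H3K9me3.

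By the ratio to the next mark, 8 genes were named for H3K27me3: Skor1, the T-box factor Tbx2, the homeobox genes Hmx1, Lhx1, Hoxb6, Otx1 and Pitx1, and Dll4, a ligand of Notch. Their ratios ran from 12.7 to 17.0. At Skor1 the levels were 8.81 for H3K27me3, 0.519 for H3K9me3 and 0.302 for H3K9me2, from 1479, 53 and 31 reads, a ratio of 17.0 (12.9 to 22.3). At Tbx2 they were 7.88, 0.480 and 0.259 and at Dll4 6.84, 0.514 and 0.398. Otx1 had the lowest H3K9me2, at 0.123 from 9 reads. At all 8 genes every used tile was rich in H3K27me3, so the mark filled the whole gene. In the Dicer KO/Dnmt1 cKO libraries H3K27me3 led at 8 of 8, by 6.13 to 11.4 times. These genes were picked for their ratio in Dicer KO. The spread of the whole H3K27me3 library was also narrower in the other genotype, where the 90th percentile over tiles was 5.50 times the 10th, and the difference between genotypes was not tested.

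The genes named for H3K9me3 had their richest tile away from the start, and at 7 of 8 the mark did not fill the gene. At Polrmt (chr10:79198868-79209326) the levels were 4.79 for H3K9me3, 0.488 for H3K9me2 and 0.431 for H3K27me3, from 419, 43 and 62 reads, a ratio of 9.81 (7.17 to 13.4). Its richest tile reached 10.6 at 6.33 kb past the start, over 1363 exonic bases. Il3ra, the alpha chain of the interleukin-3 receptor, had 4.79, 0.722 and 0.200, with all of its 5 tiles rich. Blcap had 2.63, 0.417 and 0.354, and its richest tile, at 6.52, also holds the imprinted gene Nnat. Zfp668 had 2.07, 0.341 and 0.292, and Zfp11 2.53, 0.526 and 0.500, both of them zinc-finger genes. Pank4, of the pantothenate kinase family, had 2.62, 0.477 and 0.324. Habp4, for a hyaluronan-binding protein, had 3.01, 0.556 and 0.433, and Ezr, for the membrane linker ezrin, 2.06, 0.397 and 0.275. The richest tile lay within 2 kb of the start at 0 of these 8 genes and past the middle of the gene at 7, against 4 and 3 of the 8 named for H3K27me3 and 1 and 5 of the 8 named for H3K9me2. It overlapped an exon at 8, against 7 and 5, so exon overlap did not set these genes apart. In the Dicer KO/Dnmt1 cKO libraries H3K9me3 led at all 8, by 2.85 to 7.15 times.

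Among the genes ranked, H3K9me2 led none by as much. The ratios of its 8 named genes ran from 1.60 to 1.85, and the counting intervals of all of them overlapped. At 4930503L19Rik the levels were 0.935 for H3K9me2, 0.505 for H3K9me3 and 0.318 for H3K27me3, a ratio of 1.85 (1.41 to 2.43), so that this lead stood at a level below the average of the mark. Csn2 had 1.38, 0.768 and 0.775, and Prl7a2, a prolactin-family hormone of the placenta, 1.43, 0.823 and 0.458. Glce, an epimerase of heparan sulfate synthesis, had 1.27, 0.737 and 0.417. The mucin gene Muc15 had 1.20, 0.739 and 0.690, and Prg4, for the joint lubricant lubricin, 1.15, 0.720 and 0.464. Zfp192, a zinc-finger gene, had 1.04, 0.638 and 0.350, and Med30, for a Mediator subunit, 0.940, 0.583 and 0.375. Of their tiles only 1, in Muc15, was rich in H3K9me2. H3K9me2 was highest at 8 of 8 in the Dicer KO/Dnmt1 cKO libraries as well, but with a lead of 25% at 6.

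Imprinted genes held high levels of either H3K9me3 or H3K27me3 in several cases. Of 37 listed genes 28 were measured, with medians of 1.35 for H3K9me3, 1.11 for H3K27me3 and 0.793 for H3K9me2. H3K9me3 led at 13, H3K27me3 at 10 and H3K9me2 at 0 of the 28, against 24.7%, 23.9% and 4.35% of all measured genes, and levels of 2 or more were reached at 6 genes in H3K9me3 and 8 in H3K27me3, against 0.583% and 9.86%. Nap1l5 was highest in H3K9me3, at 5.52 (0.579 for H3K9me2 and 0.458 for H3K27me3), followed by Nnat at 4.98 (0.432 and 0.375). Both lie in 2 to 3 tiles. Cdkn1c, a cell cycle inhibitor, was highest in H3K27me3 at 7.23 (0.443 for H3K9me2 and 1.03 for H3K9me3), followed by Dio3, a deiodinase of thyroid hormone, at 6.73 (0.511 and 0.686). Rtl1, a gene derived from a retrotransposon, carried all 3, with H3K27me3 at 2.41, H3K9me3 at 1.73 and H3K9me2 at 1.40. Over the 3 tiles at the gene start the highest median was that of H3K27me3 instead.

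Zinc-finger genes with a Zfp symbol had low H3K27me3, with a median of 0.347 over 337 measured genes, against 0.626 for H3K9me2 and 0.754 for H3K9me3. Over all measured genes these medians were 0.650, 0.671 and 0.747. The list thus differed most in H3K27me3, and its median H3K9me3 was close to that of all genes. H3K9me3 led at 132 of the 337 Zfp genes, against 24.7% of all measured genes, and H3K27me3 at 32, against 23.9%. A level of 2 was reached in H3K9me3 at 5 of 337, against 115 of all 19735 measured genes. Such genes were thus few, at a share above the general one. Zfp629 was highest at 5.86 (0.600 for H3K9me2 and 1.39 for H3K27me3), followed by Zfp445, a factor that binds imprinted control regions, at 2.65 (0.859 and 0.333). Their H3K9me3 dipped at the start, as it did over all genes, with a mean of 0.611 in the tile of the start and 0.907 at 50 kb before it. Around the end of the gene it went from 0.725 at 12 kb before the end to 0.998 at 2 kb before it and 0.969 in the tile of the end, and lay between 0.828 and 0.944 past the end. The rise towards the end was thus large against the gene body and small against the flank. Zfp503, a developmental repressor that does not belong to the KRAB family, had 8.25 for H3K27me3 against 0.221 for H3K9me2 and 0.617 for H3K9me3.

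Receptor gene families were the lists with the highest median H3K9me2, the vomeronasal genes only just above the fibroblast markers at 1.08. Olfactory receptor genes, silent outside sensory neurons, had medians of 1.16 for H3K9me2, 1.03 for H3K9me3 and 0.875 for H3K27me3 over 931 measured genes. H3K9me2 led at 223, H3K9me3 at 117 and H3K27me3 at 72, against 4.35%, 24.7% and 23.9% of all measured genes. Levels of 2 or more were reached at 25 genes in H3K9me2, 32 in H3K27me3 and 11 in H3K9me3, against 64, 1945 and 115 of all 19735 measured genes. The lead of H3K9me2 held in both genotypes at 82 of the 223, and most of these genes lie in 1 or 2 tiles of few reads. Olfr655, the highest, had 2.79 from 41 reads in Dicer KO and 1.56 in the other genotype. Vomeronasal receptor genes had 1.09, 1.08 and 0.834, with H3K9me2 leading at 27 of 183, against 4.35% of all measured genes, and H3K9me3 at 25, against 24.7%. Over the 3 tiles at the start the medians of H3K9me3 and H3K9me2 were 1.03 and 1.02.

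Genes that cells of every type use were low in all 3 marks. The 22 housekeeping genes had a median H3K9me2 of 0.311, H3K27me3 of 0.188 and H3K9me3 of 0.463, with all 3 marks at 0.5 or below at 13, against 1911 of all 19735 measured genes. H3K9me3 led at 15, against 24.7% of all measured genes, and at 9 in both genotypes. Its level was below 1 at every measured gene of the list but Eef2, a translation elongation factor, which stood at 1.53 for H3K9me3, 0.818 for H3K9me2 and 0.479 for H3K27me3. A list of chromatin and small RNA factors, which joins writers, erasers and readers of the marks with DNA methylation and Dicer pathway genes, was similar, at 0.431, 0.209 and 0.565 over 30 genes, with Atf7ip counted under both of its annotated entries. The highest in H3K27me3 was Dnmt3a, a DNA methyltransferase, at 0.590. Pluripotency genes had 0.395, 0.402 and 0.583 over 19 genes. H3K27me3 led at 9 of them, against 23.9% of all measured genes, and at 7 in both genotypes. Some of these leads stood at levels below 1, as at Pou5f1 and Klf4. Dppa3, expressed in germ cells and naive ESCs, was highest at 3.38 (0.273 for H3K9me2 and 0.583 for H3K9me3). Germline genes had near-average levels over gene bodies, of 0.919, 1.01 and 0.858 over 23 genes, but a median H3K27me3 of 1.58 over the 3 tiles at the start. Tex101 was highest in H3K27me3 over the gene body, at 2.47. Fibroblast markers had 1.08, 1.1 and 0.956 over 15 genes, with Col6a1 high in all 3 marks at 1.53, 1.90 and 1.58. Over the 3 tiles at the start their medians parted, to 0.659, 1.79 and 0.617.

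**Figure D5:**
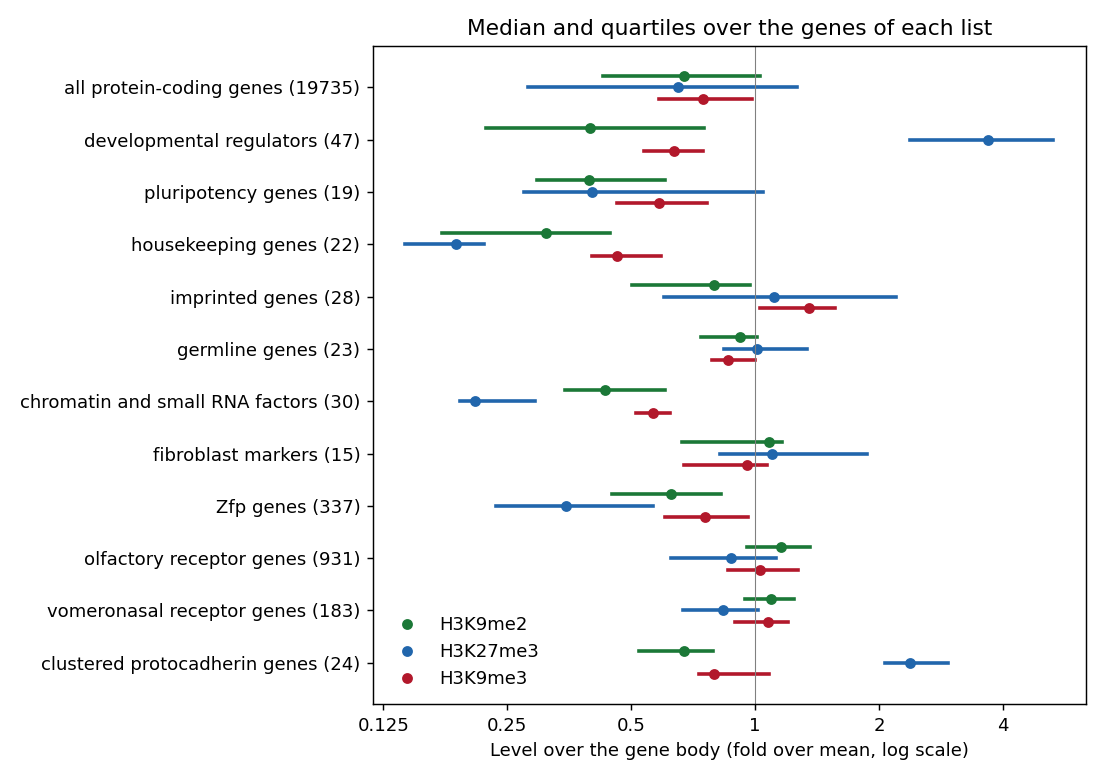
Median (point) and quartiles (line) of the gene body level (fold over the library mean, log axis) of the 3 marks over the measured genes of each list in Dicer KO ESCs, with the number of genes in brackets. H3K27me3 stands apart at developmental regulators (3.68) and clustered protocadherins (2.37), and housekeeping genes lie below 0.5 in all 3 medians.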

How the data were processed

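Per the study's methods, the authors trimmed ChIP-seq reads with Trim Galore, aligned them with Bowtie2 (Bowtie and NCBIM37 in the submitters' processing notes), discarded low mapping qualities and deposited log2 ratios of observed over expected reads. The methods give 1 kb tiles and the file 2 kb tiles. Of its 25 value columns, 19 were not used. Taken out of the log2 scale, the values of a library were whole multiples of a single step, with tiles without reads at 0.9 of a step, and 0 values of the 3 Dicer KO libraries lay more than 0.1 reads from a whole number. Reads recovered in this way gave all levels. Removal of duplicate reads is not given in the sources used here for ChIP-seq.

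Uniqueness of 32-base words, GC, CG counts and promoter sequences came from the NCBIM37 genome, and genes from GENCODE M1 on the same build. Python 3.11.15, numpy 2.4.6, pandas 2.3.3, scipy 1.17.1, numba 0.67.0 and matplotlib 3.10.9 were used. Functions were tested on simulated data. Intervals printed with a value are 95% intervals of counting error.

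Named genes were autosomal protein-coding genes with at least 5 used tiles and 200 reads over the 3 libraries (11619 genes): per mark the 8 with the largest ratio of its level to the higher of the other marks, and the 2 with the highest lowest level, passing over genes within 500 kb of one already named, plus Dicer1 and Dnmt1. Per mark 3 windows followed the same ratio, and in each list the 2 genes highest in each mark could be named. Markers of ESCs and fibroblasts and further genes named for a median or an exception are given in the text as such. The members and gene lists were chosen with earlier results of these data known. Lists came from general knowledge, and some symbols are absent from this annotation. Alternatives were other tiles, window sizes, thresholds, a GC-corrected level (50 bins of GC content) and levels at the gene start.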

Additional observations from a re-analysis of the deposited data

How the results depend on the processing

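Depth limits single tiles most, at means of 14.6 to 24.0 reads, and genes or tiles with few reads have wide intervals. Levels are relative within a library, so absolute amounts of the marks were not compared. Tiles with under 75% unique words, where H3K9me3 had the highest mean of the 3 marks, were left out, so repeats are underrepresented. No group held more than 1 library, so there were no replicates to pair. Genotypes are not replicates of each other, and a fit of the marks with genotype as a block was not made. Of 174 values recomputed under other settings 88 stayed within their interval, or within 1.5 times for shares, and 86 moved. No correlation changed sign. The cause was not tested.

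With all autosomal tiles that held any read, the window correlation was 0.633 for H3K9me2/H3K27me3, 0.697 for H3K9me2/H3K9me3 and 0.494 for H3K27me3/H3K9me3. There the tile correlation was 0.490 for H3K9me2/H3K27me3, 0.484 for H3K9me2/H3K9me3 and 0.387 for H3K27me3/H3K9me3. There dominated windows made up 4.74% for H3K9me2. There rich tiles made up 2.48% for H3K9me2 and 0.512% for H3K9me2/H3K27me3. In tiles of at least 95% unique words, the window correlation was 0.519 for H3K9me2/H3K27me3, 0.839 for H3K9me2/H3K9me3 and 0.571 for H3K27me3/H3K9me3. There the tile correlation was 0.386 for H3K9me2/H3K27me3, 0.483 for H3K9me2/H3K9me3 and 0.352 for H3K27me3/H3K9me3. There dominated windows made up 4.38% for H3K9me3. With GC-corrected levels, the window correlation was 0.733 for H3K9me2/H3K27me3, 0.738 for H3K9me2/H3K9me3 and 0.593 for H3K27me3/H3K9me3. There the tile correlation was 0.433 for H3K9me2/H3K27me3, 0.440 for H3K9me2/H3K9me3 and 0.333 for H3K27me3/H3K9me3. There dominated windows made up 0.985% for H3K9me2. There rich tiles made up 4.37% for H3K27me3 and 0.200% for H3K9me2/H3K9me3. There list medians were, for all protein-coding genes 0.753 (H3K9me2), 0.597 (H3K27me3) and 0.795 (H3K9me3), for developmental regulators 2.86 (H3K27me3) and 0.733 (H3K9me3), for olfactory receptor genes 1.16 (H3K9me2), 1.06 (H3K27me3) and 1.08 (H3K9me3), for vomeronasal receptor genes 1.07 (H3K27me3) and 1.1 (H3K9me3). Without the 0.1% of tiles with most reads, the window correlation was 0.784 for H3K9me2/H3K9me3 and 0.524 for H3K27me3/H3K9me3. There the tile correlation was 0.406 for H3K9me2/H3K27me3 and 0.338 for H3K27me3/H3K9me3. In windows of 500 kb, the window correlation was 0.495 for H3K9me2/H3K27me3, 0.817 for H3K9me2/H3K9me3 and 0.451 for H3K27me3/H3K9me3. There dominated windows made up 0.197% for H3K9me2 and 2.30% for H3K9me3. In windows of 50 kb, the window correlation was 0.562 for H3K9me2/H3K27me3, 0.735 for H3K9me2/H3K9me3 and 0.498 for H3K27me3/H3K9me3. There dominated windows made up 3.78% for H3K9me2. With a lead of 1.5 times, dominated windows made up 0.00444% for H3K9me2, 7.82% for H3K27me3 and 1.85% for H3K9me3. With a lead of 1.1 times, dominated windows made up 17.5% for H3K9me2, 22.5% for H3K27me3 and 16.5% for H3K9me3. With an own level of at least 1 required (chosen after seeing the data), dominated windows made up 3.04% for H3K9me3. In tiles summed to 10 kb, the tile correlation was 0.496 for H3K9me2/H3K27me3, 0.632 for H3K9me2/H3K9me3 and 0.438 for H3K27me3/H3K9me3. With rich set at 1.5 times the mean, rich tiles made up 11.8% for H3K9me2, 18.3% for H3K27me3, 12.1% for H3K9me3, 3.72% for H3K9me2/H3K27me3, 2.78% for H3K9me2/H3K9me3 and 3.34% for H3K27me3/H3K9me3. With rich set at 3 times the mean, rich tiles made up 0.0217% for H3K9me2, 1.36% for H3K27me3, 0.321% for H3K9me3, 0.0112% for H3K9me2/H3K27me3, 0.0134% for H3K9me2/H3K9me3 and 0.0152% for H3K27me3/H3K9me3. Over the 3 tiles at the gene start, list medians were, for all protein-coding genes 0.522 (H3K9me2), 0.695 (H3K27me3) and 0.663 (H3K9me3), for developmental regulators 0.318 (H3K9me2), for germline genes 1.58 (H3K27me3) and 1.03 (H3K9me3), for chromatin and small RNA factors 0.261 (H3K9me2) and 0.492 (H3K9me3), for fibroblast markers 0.617 (H3K9me3), for Zfp genes 0.477 (H3K9me2), 0.306 (H3K27me3) and 0.617 (H3K9me3), for olfactory receptor genes 1.11 (H3K9me2), 0.834 (H3K27me3) and 1.01 (H3K9me3), for vomeronasal receptor genes 1.02 (H3K9me2).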
